A study of Mus musculus with 3 samples.

Results

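Cluster 8 and cluster 9 of the deposited table of tumour cDC1s were compared gene by gene. Their working names, a *Ccr7* endpoint for cluster 8 and an NF-kB response for cluster 9, were given for this comparison only. NF-kB genes such as *Nfkbia*, *Nfkbiz* and *Relb* were above resting cDC1s in both clusters, so these genes do not set cluster 9 apart as the one NF-kB response, and the clusters are called by number. Members were taken by their cluster number in that table, which gave 255 cells in cluster 8 and 162 in cluster 9 out of 5806 cDC1s in 12 clusters and 30209 barcodes. The cells were pre-cDCs, cDC1s and cDC2s sorted from MCA205 LA-OVA tumours, a fibrosarcoma that carries OVA as a model antigen, which had grown on both flanks of mice until day 5. Each genotype gave 1 library. The WT library came from a pool of 37 mice (25 male and 12 female), the sGSN-/- library, from mice without secreted gelsolin, from 31 (15 male and 16 female), and the sGSN-/-Clec9a-/- library, from mice that also lacked the dead cell receptor DNGR-1, from 27 (10 male and 17 female). All mice were on a C57BL/6J background and 6 to 20 weeks old, and no treatment beyond the tumour is given for them. A library is therefore a pool of mice, no genotype was repeated, and the 3 libraries serve as replicates of the difference between the clusters only.

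cDC1s are the dendritic cells that take up dead cells and present their antigens to CD8+ T cells. When activated, they turn from uptake to presentation and costimulation, and the receptor CCR7 then guides them along lymphatic chemokines to the draining lymph node. NF-kB factors wait in the cytoplasm bound to IkB proteins. They enter the nucleus through a canonical arm (RelA, c-Rel and p50) or a slower noncanonical arm (RelB and p52, controlled by the kinase NIK), and many of their targets, IkB proteins and the deubiquitinase A20 among them, switch the pathway off again.

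Unique molecular identifiers (UMIs) were summed per library and cluster. In cluster 8 the sums were 1032186 UMIs from 84 WT cells, 1270403 from 114 sGSN-/- cells and 515307 from 57 sGSN-/-Clec9a-/- cells. In cluster 9 they were 1041283 UMIs from 67 WT cells, 554800 from 40 sGSN-/- cells and 675611 from 55 sGSN-/-Clec9a-/- cells. The median cell held 10867 UMIs in cluster 8 and 14033 in cluster 9. Cluster 8 had 63 cells with fewer than 5000 UMIs, which brought 4.73% of its molecules, and cluster 9 had 6. In those 63 cells the median share of mitochondrial UMIs was 5.02%, and *Malat1*, a nuclear RNA, made up 19.97% of UMIs, against 4.43% in the deeper cells of cluster 8. Pairs of libraries shared 26 to 28 barcodes in all and 0 in these clusters. *Clec9a*, which encodes DNGR-1, had no UMI in the sGSN-/-Clec9a-/- library of either cluster. In the WT and sGSN-/- libraries its level in counts per 1000000 UMIs (CPM) was 80.4 and 92.9 in cluster 8 and 204 and 225 in cluster 9. Counts of the gelsolin gene do not separate the secreted form from the others, so they do not check the sGSN label.

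Of 6144 genes that passed the filter on low counts, 1286 (20.9%) were higher in cluster 8 and 1062 (17.3%) in cluster 9 at an adjusted p under 0.05, together 38.2% (edgeR quasi-likelihood test, Benjamini-Hochberg adjustment, here and for each adjusted p that follows). The median log2 fold change over all genes tested was -0.0026. The clusters had been called on these same molecules, so a low adjusted p says how alike the 3 libraries were and does not test whether the clusters differ. The counts depended on the libraries: without the WT library 790 and 588 genes passed, and without the sGSN-/- library 965 and 704. They also depended on scaling. With library sizes that TMM factors did not correct, 1019 genes were higher in cluster 8 and 1487 in cluster 9, and the median over all genes moved to -0.17. Fold changes are therefore read relative to the TMM scale. They also moved when cells were regrouped on part of their molecules and counted on the other part, as described further on. There 91 cells of cluster 8 fell with cluster 9 and many fold changes moved by over 1.5 times. That setting changed the division of cells and the molecules counted at once, and their parts were not separated. Of the genes tested, 64 had 3 UMIs or fewer in cluster 9 and 6 in cluster 8, so they passed the filter through the other cluster and had to differ. Of these, 5 are in the list of mregDC genes described further on, 2 each among inhibitory ligands, the TNF superfamily, SOCS genes and cytokine receptors, and interferon gamma GTPases, and 1 each among costimulatory molecules, migration genes, uptake receptors and transcription factors, and the counts and medians of those lists are partly fixed by them. Further genes held more UMIs but were too low in every library of a cluster to pass the filter there. Examples are *Ccr7*, *Cd63*, *Gbp2*, *Il15ra*, *Il21r* and *Cxcr4* in cluster 9 and *Rtl8b*, *Cxcr3* and *Tlr11* in cluster 8. Such genes also had to differ and were not counted, so the numbers given are a minimum. A log2 fold change is that of cluster 8 over cluster 9, followed by ± its standard error and by the number of libraries in which the gene was higher in the cluster concerned. Levels are CPM of the sum, always in the order WT, sGSN-/- and sGSN-/-Clec9a-/-, and resting levels are means ± SD over the 3 libraries (n = 3) of clusters 5, 2, 3, 6 and 0, which held 3499 cells.

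Genes that the study names for clusters 8 and 9 separated the clusters in every library. The study took these genes from the same cells, so their separation is a description and no test. *Ccr7* (ENSMUSG00000037944, chr11:99144196-99155077, minus strand, GRCm38 here and for the next positions) was at 2412, 2424 and 1166 CPM in cluster 8 and at 0, 5.41 and 2.96 CPM in cluster 9 (log2 fold change 9.88 ± 0.45, edgeR adjusted p = 8.3e-10, 3 of 3 libraries). *Il12b* (ENSMUSG00000004296, chr11:44400063-44414033, plus strand), which encodes the p40 chain of IL-12, was at 2434, 2087 and 1048 CPM in cluster 8 and at 32.7, 162 and 62.2 CPM in cluster 9 (log2 fold change 4.71 ± 0.41, edgeR adjusted p = 4.4e-07, 3 of 3 libraries). *Fscn1* (ENSMUSG00000029581, chr5:142960343-142973185, plus strand), for the actin bundler fascin, was at 1078, 874 and 469.6 CPM in cluster 8 and had no UMI in cluster 9, so it was at least 662-fold higher in cluster 8 when 3 UMIs are set over the whole of cluster 9 (edgeR adjusted p = 9.8e-09, 3 of 3 libraries). For each of these genes, every cluster 8 library lay above every cluster 9 library. The resting levels of *Ccr7* and *Il12b* were 0.826 ± 0.349 and 5.75 ± 0.878 CPM, so *Il12b* was above resting in cluster 9 too. Other genes ran the opposite way. *Nfkbiz* (ENSMUSG00000035356, chr16:55811375-55838899, minus strand), for the nuclear IkB protein IkB-zeta, was at 95.9, 67.7 and 40.8 CPM in cluster 8 and at 376, 494 and 437 CPM in cluster 9 (log2 fold change -2.44 ± 0.21, edgeR adjusted p = 3.8e-07, 3 of 3 libraries). *Dusp2* (ENSMUSG00000027368, chr2:127336159-127338376, plus strand), for a phosphatase that acts on MAP kinases, was at 254, 231 and 204 CPM in cluster 8 and at 878, 741 and 728 CPM in cluster 9 (log2 fold change -1.60 ± 0.14, edgeR adjusted p = 5.7e-07, 3 of 3 libraries). *Tnfaip3* (ENSMUSG00000019850, chr10:19000910-19015657, minus strand), which encodes A20, was at 189, 131 and 192 CPM in cluster 8 and at 348, 420.0 and 443 CPM in cluster 9 (log2 fold change -1.09 ± 0.17, edgeR adjusted p = 0.00011, 3 of 3 libraries), a call lost when cells were regrouped (log2 fold change -0.23, edgeR adjusted p = 0.44). The ranges of these genes did not overlap either, and cluster 8 also lay above the resting means of 20.2 ± 1.18, 33.5 ± 1.48 and 41.4 ± 5.75 CPM in turn.

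The same molecules were also counted cell by cell, for some of the same genes. *Ccr7* was detected in 82.7% of cluster 8 cells (211 of 255, 95% Clopper-Pearson interval 77.5 to 87.2%) and in 3.09% of cluster 9 cells (5 of 162, 1.01 to 7.06%). In 3039 NK cell barcodes of these libraries, which should lack it and measured free RNA at a median depth of 9645 UMIs, it was 3.55%. Such intervals cover counting error only. With each cell thinned to 1400 UMIs, which left 236 and 162 cells, the shares were 72.5%, 0.617% and 1.06%, so cluster 9 was at the free RNA level. *Il12b* was found in 69.8% and 11.7% of cells, and in 59.3% and 6.79% after thinning, against 0.166% of NK barcodes. *Fscn1* was in 47.5% of cluster 8 cells and in 0 of 162 cluster 9 cells, which sets no limit on cells that transcribe it and allows a share of cells with a UMI (3 counts of the total) of up to 1.85%. *Nfkbiz* was in 34.9% and 91.4% of cells and, thinned, in 9.32% and 42.0%. NK cells can transcribe *Nfkbiz* and were no background for it. Of the 255 cells of cluster 8, 165 held both *Ccr7* and *Il12b*, while in cluster 9 a single cell held both. All 19 cells of cluster 9 with *Il12b* also held *Nfkbiz*, but so did 91.4% of all cluster 9 cells, so this shows no link between the genes.

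**Figure D1:**
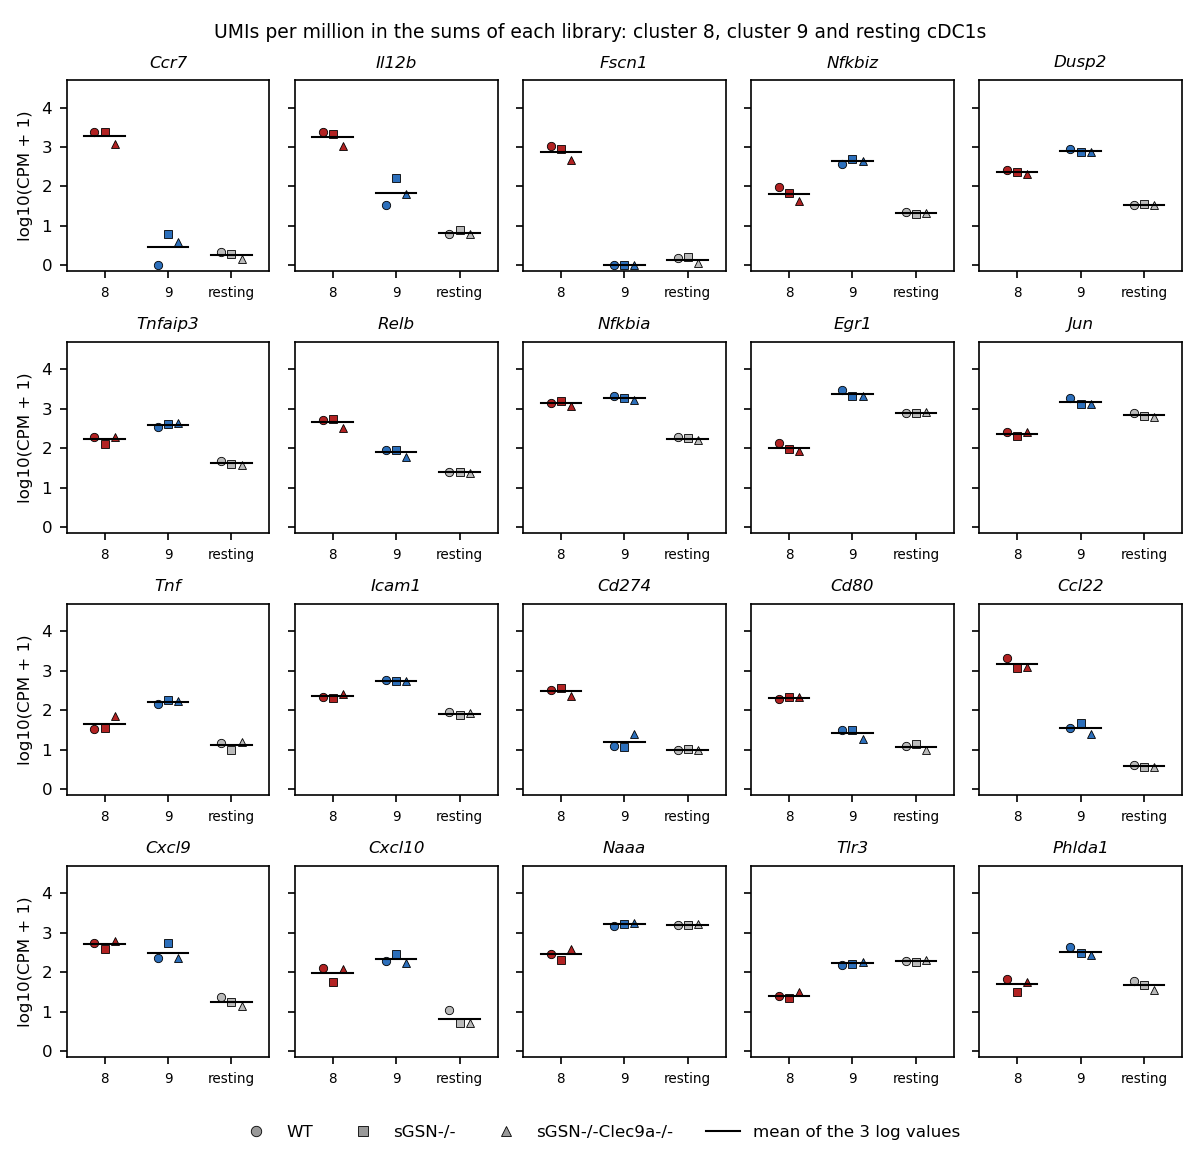
Levels of 20 genes as log10 of CPM plus 1 in cluster 8, cluster 9 and resting cDC1s, with 1 marker per genotype library and a line at the mean of the 3 log values. Ccr7 and Fscn1 sit high in cluster 8 alone and Il12b sits highest there, whereas Nfkbiz, Dusp2 and Tnfaip3 sit highest in cluster 9.

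Genes were also taken by their fitted fold change among called genes at 50 CPM or more in the higher cluster, 10 in each direction. For genes without a UMI in cluster 9 the fitted value rests on the prior count, so the order in cluster 8 is no order of size, and genes outside these 10, such as *Ccl5*, had larger ratios than some of the bounds below. In cluster 8 these were *Ccr7*, *Fscn1* and the 8 that follow. *Tnfrsf4*, for the TNF receptor family member OX40, was at 145, 185 and 95.1 CPM with no UMI in cluster 9 (at least 117-fold higher in cluster 8, edgeR adjusted p = 8.2e-08, 3 of 3 libraries). *Flrt3*, *Nudt17*, *Snn*, a *Pakap* gene (ENSMUSG00000038729) and *Atxn1* also had no UMI in cluster 9, with lower bounds of 102-, 71.7-, 54.3-, 51.1- and 48.6-fold. *Socs2*, a suppressor of cytokine signalling, was at 306, 264 and 126 CPM in cluster 8 and had 1 UMI in cluster 9, which gave a ratio of 577 with a 95% counting interval of 103 to 22830.2. *Scin*, for the actin-severing protein scinderin, also had 1 UMI there, with a ratio of 338 with a 95% counting interval of 60.3 to 13373. In each of these genes the lowest library of cluster 8 stood above the highest of cluster 9. The annotation lays other genes over *Flrt3*, *Nudt17*, *Snn*, *Pakap* and *Atxn1*, so their counts are uncertain.

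In cluster 9 the largest fitted fold change of these was that of *Egr1*, a zinc finger factor made within minutes of a stimulus, at 133, 92.9 and 87.3 CPM in cluster 8 and at 3039.5, 2150.3 and 2146 CPM in cluster 9 (log2 fold change -4.37 ± 0.20, edgeR adjusted p = 8.1e-10, 3 of 3 libraries). The groups lay far apart, and the resting mean of 792 ± 38.3 CPM fell between them. *Rtl8b*, a gene derived from a retrotransposon, was at 9.69, 4.72 and 3.88 CPM in cluster 8 and at 63.4, 82.9 and 88.8 CPM in cluster 9 (log2 fold change -3.41 ± 0.32, edgeR adjusted p = 7.7e-07, 3 of 3 libraries). *Cxcr3*, the receptor of CXCL9 and CXCL10, was at 6.78, 9.45 and 3.88 CPM in cluster 8 and at 66.3, 70.3 and 79.9 CPM in cluster 9 (log2 fold change -3.09 ± 0.29, edgeR adjusted p = 8.3e-07, 3 of 3 libraries), near its resting mean of 86.4 ± 5.13 CPM in cluster 9. *Phlda1* was at 66.8, 29.9 and 54.3 CPM in cluster 8 and at 426, 306 and 277 CPM in cluster 9, with a resting mean of 46.8 ± 12.3 CPM, so it stood above resting in cluster 9 alone. *Egr3*, of the same family as *Egr1*, was at 92.0, 50.4 and 163 CPM in cluster 8 and at 708, 654 and 565 CPM in cluster 9. *Plekha5*, *Fcrla*, *Pianp*, *Gm35853* and *Tlr3* completed the 10. *Tlr3*, which senses double-stranded RNA, was at 23.3, 20.5 and 31.0 CPM in cluster 8 and at 155, 162 and 185 CPM in cluster 9 (log2 fold change -2.64 ± 0.20, edgeR adjusted p = 1.3e-07, 3 of 3 libraries). *Plekha5*, *Fcrla*, *Gm35853*, *Tlr3* and *Phlda1* overlap other annotated genes, and *Gm35853* is antisense to its neighbours.

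Among the NF-kB subunits, 4 of the 5 tested were higher in cluster 8 and 0 in cluster 9, with a median log2 fold change of 1.08, beside 20.9% and 17.3% of all genes. These shares of all genes also apply to each list below, where a count near them is no trait of the list. *Relb* was at 529.9, 547 and 329.9 CPM in cluster 8 and at 87.4, 90.1 and 60.7 CPM in cluster 9 (log2 fold change 2.74 ± 0.21, edgeR adjusted p = 1.1e-07, 3 of 3 libraries). *Nfkb2*, whose product is cut to p52, the partner of RelB, was at 253, 243 and 194 CPM in cluster 8 and at 92.2, 101 and 78.4 CPM in cluster 9 (log2 fold change 1.53 ± 0.16, edgeR adjusted p = 3e-06, 3 of 3 libraries). *Rel*, for c-Rel, was at 1381, 1408 and 1271 CPM in cluster 8 and at 734, 912 and 528 CPM in cluster 9 (log2 fold change 1.08 ± 0.16, edgeR adjusted p = 7.8e-05, 3 of 3 libraries). The clusters did not overlap for these subunits, and both lay above the resting means of 23.9 ± 0.994, 40.7 ± 1.83 and 354 ± 26.7 CPM. *Nfkb1*, for p105 and p50, differed less, at 330.4, 332 and 283 CPM in cluster 8 and at 247, 314 and 218 CPM in cluster 9 (log2 fold change 0.46 ± 0.15, edgeR adjusted p = 0.024, 3 of 3 libraries). Its call was lost without the WT library (edgeR adjusted p = 0.2), without TMM factors (0.15), without cells under 5000 UMIs (0.055), with cells thinned to 1400 or 5000 UMIs (0.15 and 0.1) and in DESeq2 (0.057), while its log2 fold change was 0.29 without TMM factors and 0.39 to 0.51 in the others. *Rela* was at 67.8, 77.9 and 79.6 CPM in cluster 8 and at 60.5, 72.1 and 65.1 CPM in cluster 9 and did not pass.

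The inhibitors and feedback genes of the pathway split: 6 of the 14 tested were higher in cluster 8 and 5 in cluster 9, with a median log2 fold change of 0.27. Within the libraries the medians on the TMM scale, with 1 CPM added, were 0.47, 0.28 and -0.0078, so the list had no direction in the sGSN-/-Clec9a-/- library. With cells thinned to 1400 UMIs the fitted median turned to -0.34 (7 tested). Beside *Nfkbiz* and *Tnfaip3*, cluster 9 was higher in *Nfkbid*, for a nuclear IkB protein, at 82.3, 84.2 and 122 CPM in cluster 8 and at 221, 182 and 186 CPM in cluster 9 (log2 fold change -0.91 ± 0.18, edgeR adjusted p = 0.00086, 3 of 3 libraries), a call lost without the WT library (edgeR adjusted p = 0.052) and with cells thinned to 1400 UMIs (0.068). Cluster 8 was higher in other members of the same family. *Nfkbie*, for IkB-epsilon, was at 166, 186 and 184 CPM in cluster 8 and at 63.4, 86.5 and 71.0 CPM in cluster 9 (log2 fold change 1.46 ± 0.17, edgeR adjusted p = 6.4e-06, 3 of 3 libraries). *Nfkbib*, for IkB-beta, was at 357, 309 and 235 CPM in cluster 8 and at 120.0, 146 and 107 CPM in cluster 9 (log2 fold change 1.46 ± 0.17, edgeR adjusted p = 8.4e-06, 3 of 3 libraries). *Tank*, an adaptor that binds TRAF proteins, was at 175, 124 and 136 CPM in cluster 8 and at 34.6, 36.0 and 26.6 CPM in cluster 9 (log2 fold change 2.32 ± 0.20, edgeR adjusted p = 4.4e-07, 3 of 3 libraries). *Tnip3*, for an A20-binding protein, was at 276, 236 and 184 CPM in cluster 8 and at 33.6, 114 and 62.2 CPM in cluster 9, and *Tnip1*, for another, at 65.9, 66.9 and 48.5 CPM in cluster 8 and at 28.8, 10.8 and 20.7 CPM in cluster 9. Each of these 5 had separate ranges. The classical feedback gene *Nfkbia*, for IkB-alpha, was at 1425, 1623 and 1211 CPM in cluster 8 and at 2149, 1945 and 1662 CPM in cluster 9, above a resting mean of 177 ± 14.2 CPM in both. It did not pass, except without TMM factors (log2 fold change -0.43, edgeR adjusted p = 0.022).

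Of the kinases and adaptors upstream of NF-kB, 7 of the 15 tested (from 18 members) were higher in cluster 8 and 1 in cluster 9, with a median log2 fold change of 0.73. *Map3k14*, which encodes NIK, the kinase of the noncanonical arm, was at 269, 328 and 274 CPM in cluster 8 and at 55.7, 77.5 and 71.0 CPM in cluster 9 (log2 fold change 2.29 ± 0.17, edgeR adjusted p = 1.1e-07, 3 of 3 libraries). *Traf1*, itself a known NF-kB target, was at 942, 964 and 850.0 CPM in cluster 8 and at 279, 335 and 249 CPM in cluster 9 (log2 fold change 1.85 ± 0.14, edgeR adjusted p = 1.2e-07, 3 of 3 libraries). *Birc2*, for the ubiquitin ligase cIAP1 that keeps NIK low, was at 149, 187 and 89.3 CPM in cluster 8 and at 28.8, 45.1 and 34.0 CPM in cluster 9 (log2 fold change 2.23 ± 0.26, edgeR adjusted p = 7.8e-06, 3 of 3 libraries). These were separated in every pair of libraries. *Birc3*, for cIAP2, was at 139.5, 114 and 132 CPM in cluster 8 and at 112, 112 and 123 CPM in cluster 9, with overlapping ranges and no call. The gene that ran the other way was *Myd88*, the adaptor of most Toll-like receptors and of the IL-1 receptor, at 42.6, 36.2 and 36.9 CPM in cluster 8 and at 149.8, 148 and 127 CPM in cluster 9 (log2 fold change -1.71 ± 0.18, edgeR adjusted p = 2.4e-06, 3 of 3 libraries). Its resting mean was 126 ± 3.83 CPM, so cluster 9 was at the resting level and cluster 8 below it.

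Immediate early genes were mostly higher in cluster 9: 6 of the 33 tested (from 34 members) were higher in cluster 8 and 21 in cluster 9, with a median log2 fold change of -0.80, beside 20.9% and 17.3% of all genes. *Jun* was at 253, 199 and 256 CPM in cluster 8 and at 1929, 1336 and 1342 CPM in cluster 9 (log2 fold change -2.55 ± 0.17, edgeR adjusted p = 3.8e-08, 3 of 3 libraries). *Ier2* was at 258, 261 and 260.0 CPM in cluster 8 and at 1677, 1369.9 and 1474 CPM in cluster 9 (log2 fold change -2.37 ± 0.14, edgeR adjusted p = 9e-09, 3 of 3 libraries). *Fos*, the partner of Jun in AP-1, was at 937, 819 and 1176 CPM in cluster 8 and at 4399, 3654 and 3469 CPM in cluster 9 (log2 fold change -1.81 ± 0.16, edgeR adjusted p = 3.5e-07, 3 of 3 libraries). For *Jun* and *Ier2* the resting means of 687 ± 88.96 and 586 ± 8.46 CPM fell between the clusters, while for *Fos*, at 3142 ± 196 CPM, resting cells were near cluster 9. The study names *Fos* and *Jun* for clusters 2, 3 and 6, which are part of the resting cells. *Nr4a1*, an orphan nuclear receptor, was at 364, 322 and 607 CPM in cluster 8 and at 1283, 1346 and 1079 CPM in cluster 9. The 6 members higher in cluster 8 included *Nr4a3*, of the same receptor family as *Nr4a1*, at 757, 556 and 589.9 CPM in cluster 8 and at 179.6, 261 and 226 CPM in cluster 9 (log2 fold change 1.69 ± 0.17, edgeR adjusted p = 1.4e-06, 3 of 3 libraries). *Gadd45b*, for a stress sensor that NF-kB induces, was at 1659, 1947 and 1762 CPM in cluster 8 and at 774, 849 and 817 CPM in cluster 9 (log2 fold change 1.31 ± 0.13, edgeR adjusted p = 1.4e-06, 3 of 3 libraries). *Zfp36l1*, for a protein that destabilises mRNA, was at 958, 828 and 1023 CPM in cluster 8 and at 346, 481 and 359.7 CPM in cluster 9, and its paralogue *Zfp36* ran the opposite way, at 719, 767 and 887 CPM in cluster 8 and at 1313, 1471 and 1437 CPM in cluster 9. None of the pairs named overlapped.

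Chaperones were lower in cluster 8 or did not pass. For heat shock chaperones, 0 of the 11 tested (from 13 members) were higher in cluster 8 and 6 in cluster 9, with a median log2 fold change of -0.83. By library it was -0.54, -0.86 and -0.43, and without the sGSN-/- library the fitted one was -0.47. *Dnajb1*, a co-chaperone of HSP70, was at 97.9, 91.3 and 58.2 CPM in cluster 8 and at 811, 389 and 342 CPM in cluster 9 (log2 fold change -2.44 ± 0.29, edgeR adjusted p = 8.2e-06, 3 of 3 libraries). *Hspa1a*, for inducible HSP70, was at 582, 406 and 469.6 CPM in cluster 8 and at 2332, 1013 and 777 CPM in cluster 9 (log2 fold change -1.34 ± 0.30, edgeR adjusted p = 0.0021, 3 of 3 libraries), a fold change that fell to -0.86 without the WT library. The WT library was highest in cluster 9 for both, and *Hspa1a* has a near-identical copy beside it, so its own level is uncertain. For the unfolded protein response of the endoplasmic reticulum, 0 of the 15 tested (from 16 members) were higher in cluster 8 and 13 in cluster 9, with a median log2 fold change of -0.87. *Hspa5*, for the chaperone BiP, was at 626, 563 and 704 CPM in cluster 8 and at 1465, 1662 and 1529 CPM in cluster 9 (log2 fold change -1.13 ± 0.13, edgeR adjusted p = 7.5e-06, 3 of 3 libraries). *Hsp90b1*, for GRP94, was at 371, 264 and 329.9 CPM in cluster 8 and at 750.0, 838 and 687 CPM in cluster 9 (log2 fold change -1.07 ± 0.15, edgeR adjusted p = 3.6e-05, 3 of 3 libraries). Cluster 9 stood at or above the resting means of 1071 ± 125 and 714 ± 85.3 CPM and cluster 8 below them, with no overlap.

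Few cytokine genes passed the filter. Of the IL-12 family, 2 of the 2 tested (from 5 members) were higher in cluster 8 and 0 in cluster 9, with a median log2 fold change of 2.95. *Il12b* was described above, and *Ebi3*, a subunit of IL-27, was at 66.8, 60.6 and 27.2 CPM in cluster 8 and at 24.97, 21.6 and 34.0 CPM in cluster 9 (log2 fold change 1.18 ± 0.30, edgeR adjusted p = 0.0052, 2 of 3 libraries). Its call was lost without the WT library (edgeR adjusted p = 0.13) and without the sGSN-/- library (0.086), and the ranges overlapped. *Il12a*, for the p35 chain that joins p40 in IL-12, had 1 UMI in each cluster. *Il23a*, for the p19 chain of IL-23, had 3 UMIs in each, so neither partner of p40 could be compared. Of the other cytokines, 1 of the 5 tested (from 12 members) was higher in cluster 8 and 3 in cluster 9, with a median log2 fold change of -0.64. The libraries gave -0.69, -1.14 and -0.11, near 0 in the sGSN-/-Clec9a-/- library. *Tnf* was at 32.0, 34.6 and 69.9 CPM in cluster 8 and at 145, 180.2 and 167 CPM in cluster 9 (log2 fold change -1.79 ± 0.24, edgeR adjusted p = 2.7e-05, 3 of 3 libraries), with both clusters above the resting mean of 12.3 ± 3.19 CPM. *Il18* was at 29.1, 19.7 and 38.8 CPM in cluster 8 and at 87.4, 77.5 and 90.3 CPM in cluster 9 (log2 fold change -1.48 ± 0.24, edgeR adjusted p = 0.00015, 3 of 3 libraries), and there cluster 9 was near the resting mean of 97.6 ± 4.60 CPM. *Il15*, which sustains CD8+ T cells and NK cells, ran the other way, at 26.2, 35.4 and 29.1 CPM in cluster 8 and at 10.6, 18.02 and 10.4 CPM in cluster 9 (log2 fold change 1.45 ± 0.31, edgeR adjusted p = 0.0018, 3 of 3 libraries). None of these 3 overlapped. *Il1b* was at 1783, 1254 and 1712 CPM in cluster 8 and at 3063, 3219 and 2051 CPM in cluster 9 (log2 fold change -0.64 ± 0.17, edgeR adjusted p = 0.0067, 3 of 3 libraries). Its call was lost without the WT library (log2 fold change -0.65, edgeR adjusted p = 0.058) and without the sGSN-/- library (-0.40, 0.16).

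Of the chemokine ligands, 8 of the 13 tested (from 17 members) were higher in cluster 8 and 3 in cluster 9, with a median log2 fold change of 1.04. Without the sGSN-/-Clec9a-/- library it was 0.59, and on regrouping it turned to -0.67 (11 tested). *Ccl5*, which draws T cells, was at 2959.7, 3383 and 1867 CPM in cluster 8 and at 5.76, 25.2 and 16.3 CPM in cluster 9 (log2 fold change 7.76 ± 0.34, edgeR adjusted p = 6.7e-10, 3 of 3 libraries). NK cells make it too, and of thinned cells 46.6% in cluster 8, 1.23% in cluster 9 and 58.8% of NK barcodes held it. With cells that held markers of other types left out its log2 fold change was 7.87. *Ccl22*, a ligand of CCR4 on regulatory T cells, was at 2153, 1178 and 1244 CPM in cluster 8 and at 34.6, 46.9 and 23.7 CPM in cluster 9 (log2 fold change 5.62 ± 0.27, edgeR adjusted p = 1.3e-09, 3 of 3 libraries). *Ccl17*, the other CCR4 ligand, was at 499.9, 607 and 589.9 CPM in cluster 8 and at 11.5, 16.2 and 35.5 CPM in cluster 9 (log2 fold change 4.96 ± 0.27, edgeR adjusted p = 4.1e-09, 3 of 3 libraries). Regrouping of the cells ended the call of *Ccl17* (log2 fold change 0.73, edgeR adjusted p = 0.085). In cluster 9 *Ccl5* was close to its resting mean of 11.8 ± 5.87 CPM, and no range overlapped. *Cxcl16*, which holds CXCR6+ T cells near dendritic cells, was at 663, 789 and 582 CPM in cluster 8 and at 166, 187 and 118 CPM in cluster 9 (log2 fold change 2.28 ± 0.18, edgeR adjusted p = 1.2e-07, 3 of 3 libraries). *Ccl6* was higher in cluster 9, at 24.2, 13.4 and 38.8 CPM in cluster 8 and at 125, 86.5 and 126 CPM in cluster 9 (log2 fold change -2.15 ± 0.29, edgeR adjusted p = 3e-05, 3 of 3 libraries).

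Of the ligands of CXCR3, *Cxcl9* was at 562, 376 and 611 CPM in cluster 8 and at 227, 539 and 231 CPM in cluster 9, above a resting mean of 16.97 ± 4.73 CPM in both. The sGSN-/- library had more *Cxcl9* in cluster 9 than in cluster 8, and the ranges overlapped. Its call (log2 fold change 0.82 ± 0.27, edgeR adjusted p = 0.024, 2 of 3 libraries) was lost without the WT library (edgeR adjusted p = 0.27), without the sGSN-/-Clec9a-/- library (0.23), without TMM factors (0.081), with cells that held markers of other types left out (0.074), with cells thinned to 1400 UMIs (0.34) and in DESeq2 (0.19). Without the sGSN-/- library the log2 fold change of *Cxcl9* was 1.51, and on regrouping it turned to -0.67 (edgeR adjusted p = 0.27), so it had no stable direction. *Cxcl10* was at 127, 55.1 and 120.3 CPM in cluster 8 and at 191, 281 and 172 CPM in cluster 9 (log2 fold change -0.95 ± 0.26, edgeR adjusted p = 0.008, 3 of 3 libraries), and its call was lost without the sGSN-/- library (edgeR adjusted p = 0.17) and with thinned cells (0.25). *Cxcl9* was found in 30.2% of cells of cluster 8 and 51.2% of cluster 9, and after thinning in 16.9% and 22.8%, against 0.331% of NK barcodes, so both clusters held it above free RNA. *Cxcl10* was found in 21.6% of cells of cluster 8, 44.4% of cluster 9 and 18.8% of NK barcodes, and after thinning in 7.63% (4.58 to 11.8%), 15.4% and 6.07%. In cluster 8 it was therefore not above NK barcodes beyond counting error, although resting cDC1s were lower, at 5.999 ± 3.29 CPM.

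Of the chemokine receptors, 3 of the 7 tested (from 10 members) were higher in cluster 8 and 3 in cluster 9, with a median log2 fold change of -0.87. The median turned positive without the WT library (0.64) and with cells that held markers of other types left out (0.51), when 6 were tested. Within the libraries it was -0.68, -1.18 and 0.20, so the sign turned in the sGSN-/-Clec9a-/- library. *Cxcr4*, the receptor of CXCL12, was at 57.2, 59.8 and 27.2 CPM in cluster 8 and at 4.80, 5.41 and 5.92 CPM in cluster 9 (log2 fold change 3.39 ± 0.38, edgeR adjusted p = 5.7e-06, 3 of 3 libraries). *Ccrl2*, an atypical receptor that binds chemerin, was at 90.1, 144 and 124 CPM in cluster 8 and at 21.1, 27.0 and 38.5 CPM in cluster 9 (log2 fold change 2.25 ± 0.26, edgeR adjusted p = 7.1e-06, 3 of 3 libraries). *Ccr2* was at 91.1, 44.9 and 44.6 CPM in cluster 8 and at 286, 252 and 309 CPM in cluster 9 (log2 fold change -2.04 ± 0.23, edgeR adjusted p = 4.4e-06, 3 of 3 libraries), with cluster 9 near the resting mean of 305 ± 6.90 CPM. *Xcr1*, the receptor by which these cells were sorted, was at 125, 139 and 182 CPM in cluster 8 and at 234, 369.5 and 303 CPM in cluster 9 (log2 fold change -0.87 ± 0.19, edgeR adjusted p = 0.0018, 3 of 3 libraries). No range of these receptors overlapped.

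Of the costimulatory molecules, 5 of the 9 tested (from 12 members) were higher in cluster 8 and 2 in cluster 9, with a median log2 fold change of 0.67. The libraries gave 0.37, 0.97 and 0.77, lowest in WT. *Cd80*, a ligand of CD28, was at 195, 216 and 212 CPM in cluster 8 and at 30.7, 30.6 and 17.8 CPM in cluster 9 (log2 fold change 3.12 ± 0.20, edgeR adjusted p = 2.2e-08, 3 of 3 libraries). *Cd40*, the receptor through which CD4+ T cells license dendritic cells, was at 329, 195 and 206 CPM in cluster 8 and at 35.5, 88.3 and 50.3 CPM in cluster 9 (log2 fold change 2.31 ± 0.27, edgeR adjusted p = 7.5e-06, 3 of 3 libraries). *Cd86*, the other CD28 ligand, was at 443, 416 and 406 CPM in cluster 8 and at 172, 247 and 152 CPM in cluster 9 (log2 fold change 1.33 ± 0.16, edgeR adjusted p = 1.2e-05, 3 of 3 libraries), a call lost on regrouping (log2 fold change 0.56, edgeR adjusted p = 0.051). *Cd70*, the ligand of CD27, was at 61.0, 44.9 and 21.3 CPM in cluster 8 with no UMI in cluster 9 (at least 35.2-fold higher in cluster 8, edgeR adjusted p = 6.4e-06, 3 of 3 libraries). Each was separate in the 3 libraries. The adhesion molecule *Icam1* was higher in cluster 9, at 212, 205 and 264 CPM in cluster 8 and at 589.7, 553 and 546 CPM in cluster 9 (log2 fold change -1.16 ± 0.14, edgeR adjusted p = 1.4e-05, 3 of 3 libraries), and both clusters were above the resting mean of 81.7 ± 7.71 CPM. *Cd83*, often used as a maturation marker, was at 1384, 1411 and 1644 CPM in cluster 8 and at 1174, 1332 and 1115 CPM in cluster 9 (log2 fold change 0.46 ± 0.13, edgeR adjusted p = 0.01, 3 of 3 libraries), and its call was lost without the WT library (edgeR adjusted p = 0.061), without the sGSN-/-Clec9a-/- library (0.08), without TMM factors (0.077), on regrouping (0.068) and with cells thinned to 5000 UMIs (0.082). Its log2 fold change was 0.50 without the WT library and 0.29 to 0.38 in the other settings that lost the call.

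Of the ligands, receptors and enzymes that restrain T cells, 7 of the 10 tested (from 15 members) were higher in cluster 8 and 1 in cluster 9, with a median log2 fold change of 2.41. *Pdcd1lg2* and *Il4i1* are the 2 with 3 UMIs or fewer in cluster 9, and they had to differ. *Cd274*, for PD-L1, was at 327, 372 and 223 CPM in cluster 8 and at 11.5, 10.8 and 23.7 CPM in cluster 9 (log2 fold change 4.52 ± 0.28, edgeR adjusted p = 1.3e-08, 3 of 3 libraries). *Cd200*, the ligand of an inhibitory receptor on myeloid cells, was at 271, 242 and 111 CPM in cluster 8 and at 11.5, 5.41 and 13.3 CPM in cluster 9 (log2 fold change 4.49 ± 0.36, edgeR adjusted p = 1.7e-07, 3 of 3 libraries). *Pdcd1lg2*, for PD-L2, was at 113, 124 and 50.5 CPM in cluster 8 with 1 UMI in cluster 9 (a ratio of 242 with a 95% counting interval of 43.1 to 9584). *Il4i1*, an oxidase of aromatic amino acids, was at 314, 372 and 388 CPM in cluster 8 with 3 UMIs in cluster 9 (a ratio of 268 with a 95% counting interval of 91.4 to 1301). In all of these cluster 8 lay above cluster 9 in the 3 libraries. Of the TNF superfamily, 4 of the 6 tested (from 13 members) were higher in cluster 8 and 0 in cluster 9, with a median log2 fold change of 2.41, of which *Tnfrsf4* and *Tnfrsf9* had to differ. Beside *Tnfrsf4*, these were *Tnfrsf9* for 4-1BB at 49.4, 40.1 and 42.7 CPM in cluster 8 with 3 UMIs in cluster 9, *Tnfrsf1b* for TNF receptor 2, at 69.8, 67.7 and 50.5 CPM in cluster 8 and at 12.5, 12.6 and 11.8 CPM in cluster 9, and *Tnfrsf11a* for RANK, at 60.1, 63.0 and 38.8 CPM in cluster 8 and at 14.4, 14.4 and 8.88 CPM in cluster 9.

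Of the genes for migration and the cytoskeleton, 14 of the 27 tested (from 30 members) were higher in cluster 8 and 6 in cluster 9, with a median log2 fold change of 0.36, beside 20.9% and 17.3% of all genes. Within the libraries the medians were 0.30, 0.23 and 0.24, lower than the fitted one but of the same sign. *Itga4*, the alpha chain of VLA-4, was at 568, 609 and 392 CPM in cluster 8 and at 152, 155 and 136 CPM in cluster 9 (log2 fold change 2.001 ± 0.17, edgeR adjusted p = 3.8e-07, 3 of 3 libraries). Its partner *Itgb7*, which pairs with alpha 4 or alpha E, ran the opposite way, at 45.5, 37.8 and 66.0 CPM in cluster 8 and at 231, 242 and 209 CPM in cluster 9 (log2 fold change -2.10 ± 0.19, edgeR adjusted p = 6.4e-07, 3 of 3 libraries). *Itgb2*, the beta chain of LFA-1, was also higher in cluster 9, at 62.0, 61.4 and 124 CPM in cluster 8 and at 240.1, 251 and 197 CPM in cluster 9 (log2 fold change -1.39 ± 0.23, edgeR adjusted p = 0.00016, 3 of 3 libraries). For both beta chains cluster 9 was near the resting means of 249.9 ± 9.68 and 229.7 ± 7.70 CPM. *Myo1g*, a class I myosin, was at 543, 531 and 419 CPM in cluster 8 and at 174, 195 and 158 CPM in cluster 9 (log2 fold change 1.68 ± 0.15, edgeR adjusted p = 5.5e-07, 3 of 3 libraries), again with no overlap.

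Of 23 genes often listed for mature dendritic cells rich in immunoregulatory molecules (mregDCs), 19 passed the filter and 19 of these were higher in cluster 8, with a median log2 fold change of 5.97. The study had already described cluster 8 as enriched in an mregDC signature, in these same cells. This list was also chosen with earlier results of these data known, so its direction is a description and no test. Of the 19 genes tested, at least 5 had to differ, since they had 3 UMIs or fewer in cluster 9. The same held for *Cd63*, which had more UMIs but was too low in cluster 9 to pass the filter there. *Samsn1*, an adaptor of lymphocyte signalling, was at 1648, 1496 and 881 CPM in cluster 8 and at 21.1, 27.0 and 25.2 CPM in cluster 9 (log2 fold change 5.97 ± 0.26, edgeR adjusted p = 6.7e-10, 3 of 3 libraries). *Cd63*, a tetraspanin of late endosomes, was at 637, 727 and 404 CPM in cluster 8 and at 3.84, 1.80 and 4.44 CPM in cluster 9 (log2 fold change 7.50 ± 0.33, edgeR adjusted p = 7.1e-10, 3 of 3 libraries). *Serpinb9*, an inhibitor of granzyme B, was at 709, 548 and 448 CPM in cluster 8 and at 11.5, 10.8 and 14.8 CPM in cluster 9 (log2 fold change 5.68 ± 0.24, edgeR adjusted p = 6.7e-10, 3 of 3 libraries). No range overlapped, and cluster 9 was within a few CPM of the resting means of 21.8 ± 1.36, 1.30 ± 0.186 and 8.24 ± 1.07 CPM. *Lamp3*, the human mregDC marker, had no UMI in either cluster.

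Of the SOCS genes and cytokine receptors, 12 of the 20 tested were higher in cluster 8 and 2 in cluster 9, with a median log2 fold change of 1.69. *Il15ra*, which presents IL-15 to neighbouring cells, was at 66.8, 102 and 83.4 CPM in cluster 8 and at 4.80, 3.60 and 5.92 CPM in cluster 9 (log2 fold change 4.25 ± 0.33, edgeR adjusted p = 1.3e-07, 3 of 3 libraries). *Il21r* was at 113, 124 and 89.3 CPM in cluster 8 and at 5.76, 5.41 and 7.40 CPM in cluster 9 (log2 fold change 4.30 ± 0.28, edgeR adjusted p = 2.2e-08, 3 of 3 libraries). *Il2rg*, the common gamma chain of both receptors, was at 139, 131 and 111 CPM in cluster 8 and at 14.4, 18.02 and 22.2 CPM in cluster 9 (log2 fold change 3.01 ± 0.22, edgeR adjusted p = 8.2e-08, 3 of 3 libraries). *Csf2rb*, the signalling chain of the GM-CSF receptor, was at 401, 452 and 406 CPM in cluster 8 and at 64.3, 108 and 85.8 CPM in cluster 9 (log2 fold change 2.49 ± 0.18, edgeR adjusted p = 6e-08, 3 of 3 libraries), though it has a close copy in *Csf2rb2* and its own level is uncertain. These receptors were separate in all libraries. *Ifngr1*, the ligand-binding chain of the interferon gamma receptor, was higher in cluster 9, at 101, 64.5 and 103 CPM in cluster 8 and at 299, 224 and 222 CPM in cluster 9 (log2 fold change -1.35 ± 0.19, edgeR adjusted p = 5.5e-05, 3 of 3 libraries), near its resting mean of 289 ± 20.6 CPM.

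Of the transcription factors of myeloid activation, 13 of the 22 tested (from 26 members) were higher in cluster 8 and 4 in cluster 9, with a median log2 fold change of 0.71. *Stat4*, which carries IL-12 signals, was at 523, 501 and 278 CPM in cluster 8 and at 10.6, 23.4 and 8.88 CPM in cluster 9 (log2 fold change 5.19 ± 0.31, edgeR adjusted p = 1.1e-08, 3 of 3 libraries). *Nfe2l2*, for the antioxidant factor NRF2, was at 581, 497 and 545 CPM in cluster 8 and at 114, 132 and 111 CPM in cluster 9 (log2 fold change 2.36 ± 0.15, edgeR adjusted p = 1.4e-08, 3 of 3 libraries). None of these factors had overlapping ranges. For *Nfe2l2* the resting mean of 178 ± 20.4 CPM lay above cluster 9.

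cDC1 identity genes were mostly lower in cluster 8: 2 of the 22 tested (from 23 members) were higher in cluster 8 and 15 in cluster 9, with a median log2 fold change of -0.94. *Naaa*, a lysosomal amidase typical of cDC1s, was at 288, 205 and 390.1 CPM in cluster 8 and at 1445, 1687 and 1751 CPM in cluster 9 (log2 fold change -2.33 ± 0.19, edgeR adjusted p = 2.7e-07, 3 of 3 libraries). *Irf8*, the factor that sets cDC1 fate, was at 723, 680.1 and 625 CPM in cluster 8 and at 1323, 1296 and 1246 CPM in cluster 9 (log2 fold change -0.76 ± 0.12, edgeR adjusted p = 0.00016, 3 of 3 libraries), a call lost on regrouping (log2 fold change -0.29, edgeR adjusted p = 0.3). *Wdfy4*, needed for cross-presentation, was at 128, 132 and 279 CPM in cluster 8 and at 433, 487 and 536 CPM in cluster 9 (log2 fold change -1.32 ± 0.24, edgeR adjusted p = 0.00043, 3 of 3 libraries). In cluster 9 these stood near the resting means of 1593 ± 88.0, 1302 ± 27.0 and 475 ± 18.8 CPM, and no range overlapped. *Batf3*, the partner of IRF8, was at 189.9, 188 and 113 CPM in cluster 8 and at 215, 219.9 and 232 CPM in cluster 9 and did not pass. The exceptions were *Id2*, at 1082, 1082 and 1056 CPM in cluster 8 and at 527, 494 and 601 CPM in cluster 9 (log2 fold change 1.15 ± 0.13, edgeR adjusted p = 7.5e-06, 3 of 3 libraries), and *Nfil3*, at 151, 132 and 107 CPM in cluster 8 and at 39.4, 57.7 and 32.6 CPM in cluster 9 (log2 fold change 1.80 ± 0.21, edgeR adjusted p = 7.6e-06, 3 of 3 libraries), both of them regulators of cDC1 development. *Clec9a* did not pass over the 3 libraries. It passed without the sGSN-/-Clec9a-/- library, which lacks it (log2 fold change -1.13, edgeR adjusted p = 0.00018, 2 of 2 libraries), with no filter on low counts (edgeR adjusted p = 1.5e-05), with cells thinned to 5000 UMIs (0.036), and with the library as a block (-1.13, 0.00034).

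Of the uptake and dead cell receptors, 3 of the 9 tested (from 18 members) were higher in cluster 8 and 3 in cluster 9, with a median log2 fold change of -0.44, a median that turned to 0.15 with cells that held markers of other types left out. Within the libraries it was -0.94, -0.94 and 0.60, with the other sign in the sGSN-/-Clec9a-/- library. *Ly75*, for the endocytic receptor DEC-205, was at 319, 283 and 221 CPM in cluster 8 and at 26.9, 28.8 and 19.2 CPM in cluster 9 (log2 fold change 3.62 ± 0.21, edgeR adjusted p = 6.7e-09, 3 of 3 libraries). *Axl*, a receptor that binds dying cells through GAS6, was at 46.5, 43.3 and 33.0 CPM in cluster 8 with 2 UMIs in cluster 9 (a ratio of 48.4 with a 95% counting interval of 13.1 to 404). *Fcgr2b*, the inhibitory receptor of immune complexes, was higher in cluster 9, at 66.8, 23.6 and 50.5 CPM in cluster 8 and at 155, 141 and 159.9 CPM in cluster 9 (log2 fold change -1.58 ± 0.26, edgeR adjusted p = 0.00022, 3 of 3 libraries). The ranges were separate for all 3. Of the Toll-like receptors and their chaperone, 0 of the 6 tested (from 12 members) were higher in cluster 8 and 3 in cluster 9, with a median log2 fold change of -0.71. By library it was -1.13, -1.18 and -0.73, and without the WT library it was -2.67 over the 3 genes then tested. Beside *Tlr3*, these were *Tlr11*, which binds profilin of protozoa, at 3.88, 0 and 5.82 CPM in cluster 8 and at 29.8, 18.02 and 16.3 CPM in cluster 9, and the chaperone *Unc93b1*, at 127, 119.6 and 165 CPM in cluster 8 and at 288, 249 and 258 CPM in cluster 9.

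The MHC classes went different ways. Of the class II genes, 1 of the 12 tested was higher in cluster 8 and 7 in cluster 9, with a median log2 fold change of -0.49. *March1*, for the ubiquitin ligase that removes MHC class II and CD86 from the surface, was at 26.2, 19.7 and 21.3 CPM in cluster 8 and at 127, 173 and 151 CPM in cluster 9 (log2 fold change -2.56 ± 0.21, edgeR adjusted p = 2.1e-07, 3 of 3 libraries). *Ciita*, the class II transactivator, was at 52.3, 47.2 and 71.8 CPM in cluster 8 and at 173, 196 and 188 CPM in cluster 9 (log2 fold change -1.58 ± 0.18, edgeR adjusted p = 6.3e-06, 3 of 3 libraries). *H2-DMa*, which loads peptides, was at 280.0, 258 and 380.4 CPM in cluster 8 and at 895, 899 and 943 CPM in cluster 9 (log2 fold change -1.43 ± 0.16, edgeR adjusted p = 4.3e-06, 3 of 3 libraries). Cluster 9 was near the resting means of 175 ± 14.2, 187 ± 0.999 and 893 ± 33.7 CPM in each. The invariant chain *Cd74* was at 16604, 14442 and 18566 CPM in cluster 8 and at 20750.4, 20090.1 and 19456 CPM in cluster 9 and did not pass. Of the class I genes, 16 of the 19 tested were higher in cluster 8 and 0 in cluster 9, with a median log2 fold change of 0.85. *B2m* was at 3070.2, 3208 and 2354 CPM in cluster 8 and at 1124, 1258 and 1187 CPM in cluster 9 (log2 fold change 1.44 ± 0.14, edgeR adjusted p = 1.2e-06, 3 of 3 libraries). *Nlrc5*, the class I transactivator, was at 102, 84.2 and 95.1 CPM in cluster 8 and at 21.1, 37.9 and 22.2 CPM in cluster 9 (log2 fold change 2.01 ± 0.23, edgeR adjusted p = 6.4e-06, 3 of 3 libraries). *H2-K1* was at 2213, 2335 and 1849 CPM in cluster 8 and at 988, 1063 and 965 CPM in cluster 9, a level that reads shared with other class I genes make uncertain.

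Of genes induced by type I interferon, 13 of the 18 tested (from 26 members) were higher in cluster 8 and 1 in cluster 9, with a median log2 fold change of 1.48. By library it was 1.43, 1.36 and 0.64, lowest in the sGSN-/-Clec9a-/- library. *Isg15*, a ubiquitin-like protein, was at 687, 749 and 382 CPM in cluster 8 and at 52.8, 155 and 118 CPM in cluster 9 (log2 fold change 2.72 ± 0.30, edgeR adjusted p = 5.2e-06, 3 of 3 libraries). *Oasl1* was at 132, 178 and 104.8 CPM in cluster 8 and at 9.60, 23.4 and 5.92 CPM in cluster 9 (log2 fold change 3.71 ± 0.33, edgeR adjusted p = 4.4e-07, 3 of 3 libraries). No range overlapped, although in cluster 8 the sGSN-/-Clec9a-/- library was the lowest for both. Of the interferon gamma GTPases and IRF1, 5 of the 7 tested (from 16 members) were higher in cluster 8 and 0 in cluster 9, with a median log2 fold change of 1.90. Within the libraries it was 3.47, 3.26 and 3.90, and without the sGSN-/- library the fitted one was 4.63, so the median of these 7 genes was not stable. *Gbp2*, a guanylate-binding protein, was at 67.8, 66.9 and 36.9 CPM in cluster 8 and at 3.84, 1.80 and 0 CPM in cluster 9 (log2 fold change 4.84 ± 0.47, edgeR adjusted p = 1.2e-06, 3 of 3 libraries). *Irf1*, which sits upstream of many of them, was at 274, 234 and 175 CPM in cluster 8 and at 142, 175 and 159.9 CPM in cluster 9 (log2 fold change 0.71 ± 0.17, edgeR adjusted p = 0.0036, 3 of 3 libraries), a call lost without the WT library (edgeR adjusted p = 0.13). Both clusters were above its resting mean of 37.1 ± 1.89 CPM.

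Of the genes of sterol synthesis and efflux, 9 of the 13 tested (from 22 members) were higher in cluster 8 and 1 in cluster 9, with a median log2 fold change of 0.91. By library it was 1.03, 0.74 and 0.52. *Apoe*, a macrophage marker too, is 1 of these 9, and its call was lost without the WT library, as shown with the markers. *Idi1*, which makes dimethylallyl diphosphate, was at 123, 110.2 and 29.1 CPM in cluster 8 and at 11.5, 5.41 and 1.48 CPM in cluster 9 (log2 fold change 3.88 ± 0.51, edgeR adjusted p = 2.4e-05, 3 of 3 libraries). The clusters did not overlap, but the sGSN-/-Clec9a-/- library was far below the others in cluster 8. Of the BCL2 family, 6 of the 13 tested (from 15 members) were higher in cluster 8 and 1 in cluster 9, with a median log2 fold change of 0.31. It was 0.58 without the WT library and 0.19 without the sGSN-/- library. *Bcl2l14* was at 322, 340.1 and 246 CPM in cluster 8 and at 27.9, 18.02 and 11.8 CPM in cluster 9 (log2 fold change 4.06 ± 0.24, edgeR adjusted p = 9e-09, 3 of 3 libraries). *Bcl2l1*, for the survival protein BCL-XL, was at 49.4, 47.2 and 99.0 CPM in cluster 8 and at 15.4, 14.4 and 10.4 CPM in cluster 9 (log2 fold change 2.32 ± 0.34, edgeR adjusted p = 7.1e-05, 3 of 3 libraries). *Bcl2a1b*, a target of NF-kB, was at 1918, 1879.7 and 1483 CPM in cluster 8 and at 646, 817 and 580.2 CPM in cluster 9, a level that reads shared with close copies of the gene make uncertain.

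Of the glycolysis genes, 5 of the 15 tested (from 17 members) were higher in cluster 8 and 4 in cluster 9, with a median log2 fold change of 0.16, which became -0.0052 without TMM factors and -0.059 with cells that held markers of other types left out, so the list had no stable direction. *Pfkfb3*, which makes the activator of phosphofructokinase, was at 124, 172 and 111 CPM in cluster 8 and at 26.9, 14.4 and 13.3 CPM in cluster 9 (log2 fold change 2.99 ± 0.27, edgeR adjusted p = 6e-07, 3 of 3 libraries). *Ldha*, for lactate dehydrogenase, was at 247, 276 and 336 CPM in cluster 8 and at 493, 528 and 502 CPM in cluster 9 (log2 fold change -0.67 ± 0.15, edgeR adjusted p = 0.002, 3 of 3 libraries). These members moved in opposite directions in every library. Of the lysosomal genes, 8 of the 15 tested (from 18 members) were higher in cluster 8 and 3 in cluster 9, with a median log2 fold change of 0.48, beside 20.9% and 17.3% of all genes. *Lgmn*, for the protease legumain, was at 274, 277 and 139.7 CPM in cluster 8 and at 11.5, 10.8 and 8.88 CPM in cluster 9 (log2 fold change 4.63 ± 0.31, edgeR adjusted p = 2.5e-08, 3 of 3 libraries). *Psap*, the precursor of the saposins, was at 1232, 1363 and 1976 CPM in cluster 8 and at 2937, 3601 and 3379 CPM in cluster 9 (log2 fold change -0.95 ± 0.17, edgeR adjusted p = 0.00035, 3 of 3 libraries). Ribosomal protein genes rarely passed, 1 of 83 higher in cluster 8 and 5 in cluster 9 (median -0.16), and nuclear genes of the respiratory chain likewise, 3 and 9 of 81 (median -0.039). By library the median of the ribosomal protein genes was -0.36, -0.014 and -0.094, near 0 in the sGSN-/- library.

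**Figure D2:**
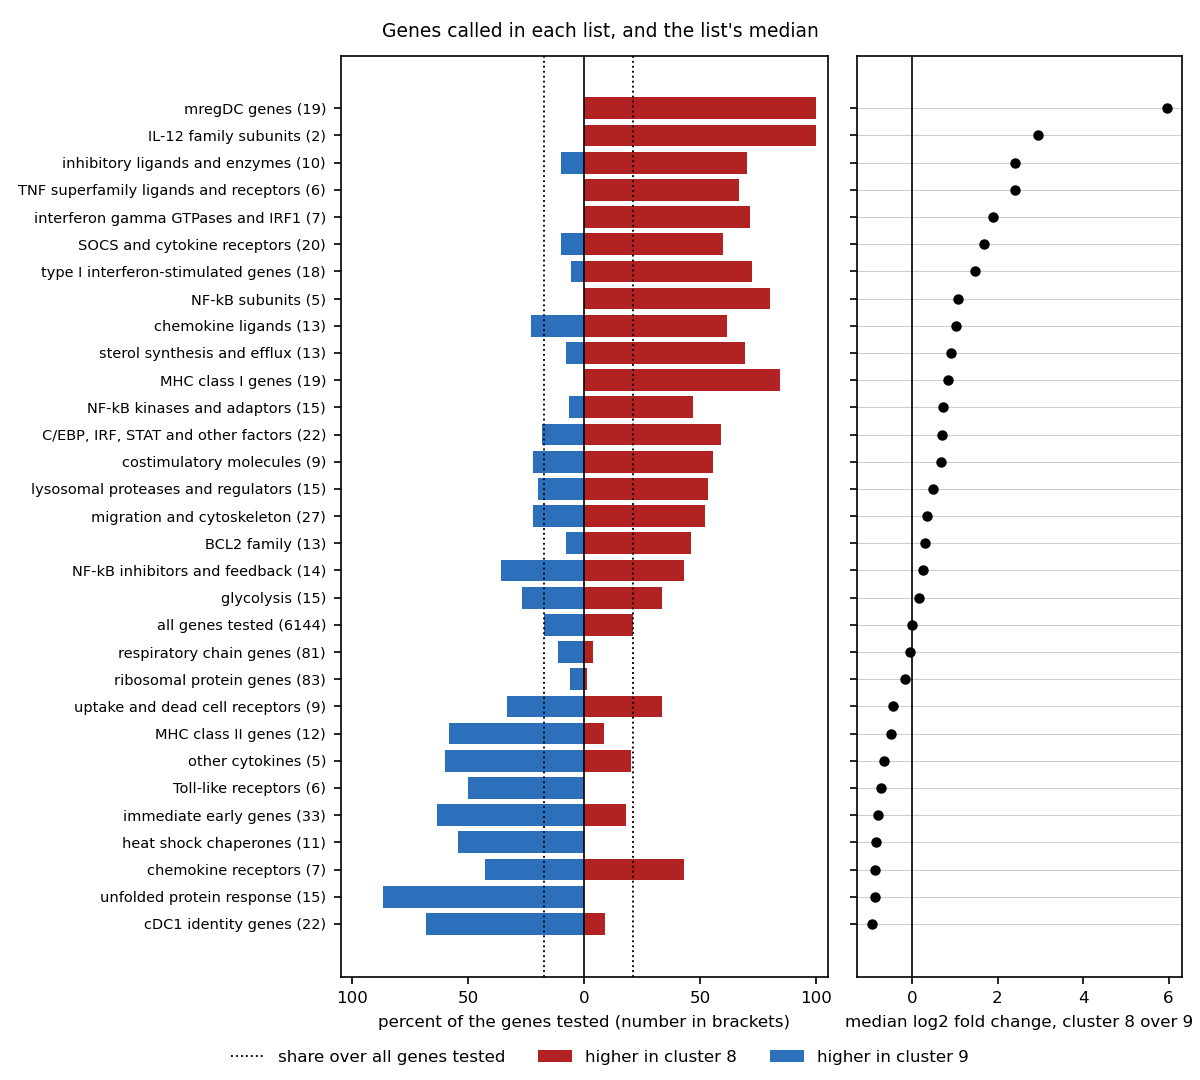
For each of 30 gene lists, the percent of tested members called higher in cluster 8 or in cluster 9, with dotted lines at the shares of all genes tested (20.9% and 17.3%), and on the right the median log2 fold change of cluster 8 over cluster 9. The lists for immediate early genes, the unfolded protein response and cDC1 identity lie to the left of 0 and those for inhibitory ligands, MHC class I and mregDCs to the right, the first and last of these with members that passed the filter through cluster 8 alone.

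Set against resting cDC1s, the clusters differed in different ways. Ratios of mean CPM, with 1 CPM added, were taken for called genes at 50 CPM or more in the higher cluster. Of 844 such genes higher in cluster 8, 438 were at least 2-fold above resting there and 406 lay within 2-fold. The median ratio of cluster 8 to resting was 2.05, and that of cluster 9 to resting 0.995, with 776 genes within 2-fold. Of 603 genes higher in cluster 9, 22 were at least 2-fold above resting there and 581 within 2-fold, with a median of 1.03, while cluster 8 was 2-fold or more below resting in 326, with a median of 0.483. Most genes called higher in cluster 9 were therefore at the resting level in cluster 9 and lower in cluster 8. In both clusters 55 genes were at 50 CPM or more and at least 2-fold above resting. Of these, 38 were higher in cluster 8, 12 were not called, *Nfkbia* among them, and 5 were higher in cluster 9, namely *Cxcl10*, *Dusp2*, *Icam1*, *Nfkbiz* and *Tnfaip3*. The call of *Cxcl10* rested on the sGSN-/- library (edgeR adjusted p = 0.17 without it), and its share of cluster 8 cells did not exceed that of NK barcodes beyond counting error. The mean of cluster 9 over that of resting cDC1s was 20.6 for *Nfkbiz*, 10.8 for *Nfkbia*, 9.55 for *Tnfaip3*, 6.82 for *Icam1*, and for the subunits 3.50 for *Nfkb1*, 3.23 for *Relb*, 2.20 for *Nfkb2* and 2.05 for *Rel*. In cluster 8 the same ratios were 3.26, 8.003, 4.06, 2.76, 4.25, 18.9, 5.54 and 3.82 in turn.

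Markers of other cell types were followed in the sums. The 11 monocyte and macrophage markers summed in cluster 8 to 622, 92.1 and 91.2 CPM, and in cluster 9 to 66.3, 43.3 and 50.3 CPM, with *Apoe* the most abundant and *Ms4a7* at 0 in cluster 9. The WT library of cluster 8 stood apart. It held 264 UMIs of *Apoe* in 28 of 84 cells, 155 of them in a single cell, and without that library the log2 fold change of *Apoe* fell from 2.47 to 0.22 (edgeR adjusted p = 0.74). It was 0.73 with cells that held markers of other types left out (edgeR adjusted p = 0.24), and DESeq2 did not call it (adjusted p = 0.083). The NK cell markers summed in cluster 8 to 101, 204 and 54.3 CPM, and in cluster 9 to 36.5, 61.3 and 40.0 CPM, with *Prf1* and *Eomes* at 0 in cluster 9. Of the NK cell markers, 2 of the 2 tested were called higher in cluster 8, as were 2 of the 2 tested for monocytes and macrophages. Of the markers of cycling cells, 1 of the 2 tested was higher in cluster 9. *Klrd1* was the most abundant NK cell marker (log2 fold change 1.51 ± 0.30, edgeR adjusted p = 0.00092, 3 of 3 libraries). Its call was lost without the WT library (edgeR adjusted p = 0.059) and with the cells that held markers of other types left out (0.067). The T cell markers summed in cluster 8 to 16.5, 32.3 and 3.88 CPM, and in cluster 9 to 1.92, 7.21 and 4.44 CPM, with *Cd8a* at 0 in cluster 9. The cDC2 markers summed in cluster 8 to 112, 23.6 and 46.6 CPM, and in cluster 9 to 46.1, 37.9 and 48.8 CPM, and *Ccr6* was at 0 in cluster 9. The cDC1 markers summed in cluster 8 to 1619.9, 1515 and 1735 CPM, and in cluster 9 to 4137, 4612 and 4355 CPM, with fewer such molecules in cluster 8. Free RNA alone can give such UMIs, so shares of thinned cells were set against NK barcodes. *Xcr1* was in 11.4% of cluster 8 cells, 29.0% of cluster 9 cells and 0.729% of NK barcodes, and *Naaa* in 16.5%, 87.7% and 7.26%. Without thinning the shares were 41.2%, 84.6% and 6.19% for *Xcr1* and 34.5% of cluster 8 cells, all 162 cluster 9 cells and 26.9% of NK barcodes for *Naaa*. *Xcr1* was above the NK share in both clusters and *Naaa* clearly so in cluster 9. The *Naaa* of cluster 8 came mostly from 91 of its cells, described further on, and for its other cells a level above free RNA was not shown. The B cell markers summed in cluster 8 to 25.2, 22.04 and 36.9 CPM, and in cluster 9 to 101, 93.7 and 112 CPM. *Ighm* made up most of this (log2 fold change -2.09 ± 0.27, edgeR adjusted p = 1.7e-05, 3 of 3 libraries), with a resting mean of 119 ± 0.949 CPM, and *Cd79a* was at 0 in both clusters. The pre-cDC markers summed in cluster 8 to 48.4, 41.7 and 40.8 CPM, and in cluster 9 to 10.6, 12.6 and 10.4 CPM, with *Ly6c2* the most abundant in cluster 8 and *Cx3cr1* in cluster 9, and none of them passed the filter. In the sGSN-/- library of cluster 8, 30 of the 38 UMIs of *Ly6c2* were in a single cell. Plasmacytoid markers came to 6.78, 14.96 and 27.2 CPM in cluster 8, against 13.4, 18.02 and 5.92 CPM in cluster 9, those of tumour or stroma to 24.2, 11.0 and 21.3 CPM, against 17.3, 5.41 and 4.44 CPM, and those of cycling cells to 111, 117 and 33.0 CPM, against 123, 110.0 and 117 CPM. Of the neutrophil markers, *S100a8*, *S100a9* and *Retnlg* were at 0 in both. By a doublet score, 11 cells of cluster 8 and none of cluster 9 were marked, and 59 and 30 cells held UMIs of 2 or more markers of other types. With the marked cells left out 1290 and 1080 genes passed, and with the cells that held such markers left out 1127 and 969. The part of such cells in single results was not tested beyond the values given.

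Between genotypes each cluster had 1 library, so values are given with 95% counting intervals and no test. Of the cells in both clusters, cluster 8 held 55.6% (47.3 to 63.7%) for WT, 74.0% (66.4 to 80.8%) for sGSN-/- and 50.9% (41.3 to 60.5%) for sGSN-/-Clec9a-/- (Clopper-Pearson). The sGSN-/- interval lay above the others, which overlapped each other. As shares of all cDC1s of the library, cluster 8 held 3.63% (2.90 to 4.47%) of the WT cells, 6.66% (5.52 to 7.95%) of the sGSN-/- cells and 3.21% (2.44 to 4.13%) of the sGSN-/-Clec9a-/- cells, and cluster 9 2.89% (2.25 to 3.66%), 2.34% (1.67 to 3.17%) and 3.09% (2.34 to 4.01%). In cluster 8 the sGSN-/- interval lay above the others, which overlapped, and in cluster 9 all 3 overlapped. These intervals cover the counting of cells in 1 library per genotype. *Ccr7* in cluster 8 was at 2412 CPM (2319 to 2509), 2424 CPM (2339 to 2511) and 1166 CPM (1075 to 1263) (Poisson). *Il12b* was at 2434 CPM (2339 to 2531), 2087 CPM (2008 to 2168) and 1048 CPM (961 to 1140.2). *Fscn1* was at 1078 CPM (1016 to 1144), 874 CPM (823 to 927) and 469.6 CPM (412 to 533). The sGSN-/-Clec9a-/- library was the lowest for each, beyond counting error, and its cluster 8 cells were also the shallowest, with a median of 8459 UMIs against 12310.5 and 11035.5. *Idi1* was lowest there too, with 123 CPM (103 to 146), 110.2 CPM (92.7 to 130.0) and 29.1 CPM (16.3 to 48.0). Whether pools of one genotype differ as much was not tested.

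Cluster 8 cells did not all group together when cells of both clusters were regrouped. The number of groups was fixed at 2, so the division alone does not show that cluster 8 held separate kinds of cells. Each cell's molecules were assigned at random to one of 2 parts, cells were grouped on the first part and levels were counted on the other. Grouping into 2 placed 164 of the 255 cluster 8 cells in a group high in *Ccr7* and the other 91 (22, 45 and 24 per library) in the group that held 160 of the 162 cluster 9 cells. The 91 cells were not shallow, with a median of 15283 UMIs, and 8 of the 11 marked doublets were among them. The 164 cells were shallower, with a median of 7134 UMIs, and held every cluster 8 cell under 5000 UMIs. The 2 cluster 9 cells grouped with them had a median of 2742 UMIs, so the division ran with depth too. Levels follow as means ± SD (n = 3) for cells of 5000 UMIs or more, first for the 101 such cells of the *Ccr7* group, then for the 91, then for cluster 9. *Ccr7* was at 3356 ± 567, 1090.1 ± 700.2 and 3.21 ± 3.01 CPM. *Il12b* was at 2866 ± 319, 1114 ± 796 and 78.7 ± 66.5 CPM. *Ccl22* was at 2414 ± 939, 922 ± 468 and 32.6 ± 10.4 CPM. For these the mean of the 91 cells lay between the others. *Fscn1* was at 1806 ± 621, 40.4 ± 57.5 and 0 ± 0 CPM. *Ccl5* was at 6044 ± 1658, 443 ± 627 and 19.2 ± 15.9 CPM. *Naaa* was at 15.3 ± 7.17, 516 ± 211 and 1631 ± 130.0 CPM. For these too the mean of the 91 cells lay between the others, and for *Fscn1* and *Ccl5* the sGSN-/- library was the highest of the 91 cells by far. *Egr1* was at 57.3 ± 51.8, 144 ± 37.8 and 2519.6 ± 491 CPM, and *Nfkbiz* at 94.2 ± 14.3, 50.1 ± 25.8 and 426 ± 62.8 CPM, and for these the 91 cells were nearer to the rest of cluster 8.

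In some other genes the 91 cells had the highest mean. *Ccl17* was at 461 ± 42.7, 614 ± 121 and 20.8 ± 6.77 CPM. *Cxcl9* was at 376 ± 341, 778 ± 266 and 325 ± 139.6 CPM. *Ccl4* was at 242 ± 153, 859.7 ± 421 and 505 ± 126 CPM. Each of these overlapped by its SD with at least 1 of the other groups, and no test was made. *Cd74*, also highest there, was at 10176 ± 3630.4, 22546 ± 3633 and 20077 ± 646 CPM and *Il1b* at 628 ± 474, 2368 ± 463 and 2690.4 ± 658 CPM, both nearer to cluster 9 by the mean. When all cells were regrouped this way, 871 of 4275 genes tested were higher in the *Ccr7* group and 917 in the other. Of 1835 genes called before and tested here, 1327 kept their call and 63 had the other sign, 5 of these with a call. *Ccl4* went from a log2 fold change of 0.27 (edgeR adjusted p = 0.42) to -1.40 (0.01). *Birc3* (log2 fold change 0.85, edgeR adjusted p = 0.0065) and *Cd74* (-1.09, 0.00068) passed in this setting. Since the division and the clusters rest on the same cells, these levels are a description.

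**Figure D3:**
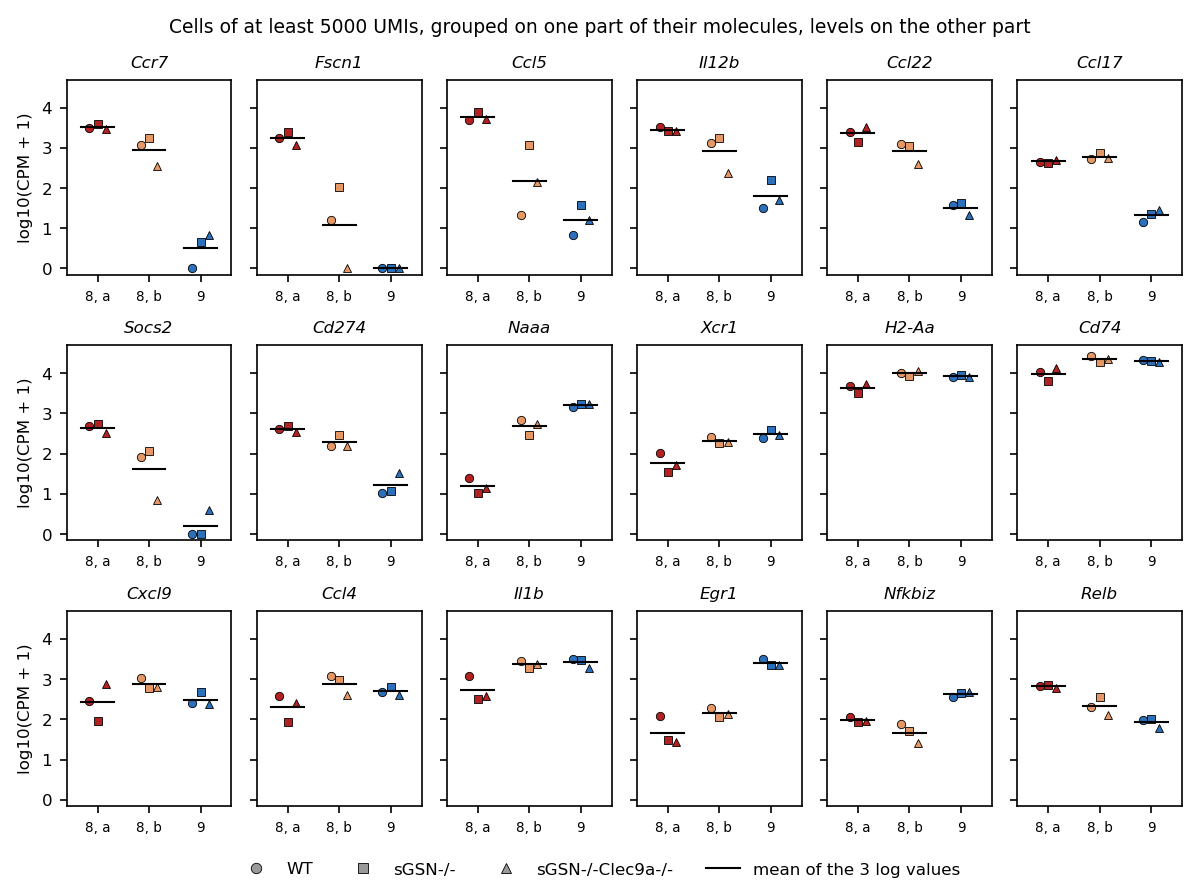
Levels of 18 genes as log10 of CPM plus 1, counted on the part of the molecules not used for grouping, in cells of 5000 UMIs or more, for cluster 8 cells in the group high in Ccr7 (8, a), cluster 8 cells grouped with cluster 9 (8, b) and cluster 9, with 1 marker per genotype library. The middle column lies between the others for Ccr7 and Il12b and has the highest mean for Ccl17 and Cxcl9.

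Promoters from RefSeq (GRCm38.p6, 300 bases that end shortly after the start of each gene) were searched on both strands for GGANNTTCC, the core of a form of the site that NF-kB binds. It was in 1147 of 27025 promoters (4.24%), in 5.02% of those of the genes tested, in 48 of 1020 (4.71%) of genes higher in cluster 8 and in 50 of 848 (5.90%) of genes higher in cluster 9. With 1 more G before these letters the order turned, with 23 of 1020 (2.25%) for genes higher in cluster 8, 13 of 848 (1.53%) for genes higher in cluster 9 and 387 of 27025 (1.43%) for all promoters. Both forms were chosen after the levels were seen, and no test was made on the shares, which describe letters and not binding. Among the lists, 5 of 11 chemokine ligand promoters held the shorter form, those of *Ccl12*, *Cxcl1*, *Cxcl2*, *Cxcl3* and *Cxcl10*, but not those of *Ccl22* and *Ccl17*. So did 4 of 13 promoters of NF-kB inhibitors and feedback genes, that of *Nfkbia* among them. It was also in 1 of 3 promoters of IL-12 family subunits, 3 of 10 of other cytokines, 3 of 12 of interferon gamma GTPases and IRF1 and 2 of 10 of heat shock chaperones. None of 3 promoters of NF-kB subunits, 19 of mregDC genes, 11 of inhibitory ligands and 21 of migration genes held it. The same was true of 14 promoters of the unfolded protein response, 16 of uptake receptors and 15 of sterol genes. With 5.02% of tested genes holding it, lists this short can hold none. The promoters of 3 genes described above, one not called, one higher in cluster 9 and one higher in cluster 8, are shown with each match to the shorter form in capitals, each read 5′ to 3′ on the strand of the gene: *Nfkbia* at chr12:55492598-55492897, minus strand, *Cxcl10* at chr5:92348840-92349139, minus strand and *Gbp2* at chr3:142620413-142620712, plus strand.
Nfkbia: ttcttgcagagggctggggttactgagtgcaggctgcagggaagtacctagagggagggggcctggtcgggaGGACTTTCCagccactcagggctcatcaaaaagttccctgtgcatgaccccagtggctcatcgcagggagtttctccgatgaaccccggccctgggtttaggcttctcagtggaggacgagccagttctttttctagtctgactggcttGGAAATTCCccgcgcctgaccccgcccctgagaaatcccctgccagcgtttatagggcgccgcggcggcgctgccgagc
Cxcl10: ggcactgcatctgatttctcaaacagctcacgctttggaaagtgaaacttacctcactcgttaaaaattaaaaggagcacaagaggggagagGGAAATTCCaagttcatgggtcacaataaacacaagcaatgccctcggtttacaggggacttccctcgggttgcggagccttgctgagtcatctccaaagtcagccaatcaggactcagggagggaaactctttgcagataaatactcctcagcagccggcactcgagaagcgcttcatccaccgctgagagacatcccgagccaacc
Gbp2: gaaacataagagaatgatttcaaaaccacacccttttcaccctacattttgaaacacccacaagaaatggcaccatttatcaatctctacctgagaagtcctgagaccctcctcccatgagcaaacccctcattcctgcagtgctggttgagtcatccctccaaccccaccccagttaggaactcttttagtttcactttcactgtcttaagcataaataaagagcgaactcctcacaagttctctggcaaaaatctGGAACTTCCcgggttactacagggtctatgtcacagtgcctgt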

How the data were processed

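Per the methods and the submitters' processing notes, the authors aligned reads with Cell Ranger to mm10 (GRCm38) and deposited counts of UMIs per gene and barcode, with a table made with Seurat that gives each cDC1 its library, cluster and UMI count. The notes give Seurat 4.0.0, whereas in the methods 4.0.0 is the version of R and Seurat is v3. UMIs of table cells in the deposited matrices equalled the deposited count in 4559 of 5806 cells and differed by at most 34. The sources used here do not say whether counting used strand. GENCODE annotation lays other genes over *Nfkb2*, *Nfkbib*, *Myd88*, *Cxcl10*, *Cxcl16*, *Cd274*, *Il4i1*, *Itga4*, *Wdfy4* and further genes named above, whose counts are therefore uncertain.

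Counts were summed per library and cluster over 32285 genes and tested with edgeR 4.0.16 (R 4.3.3, TMM factors, filterByExpr, quasi-likelihood F-test, Benjamini-Hochberg adjustment, threshold 0.05), with no block, after the procedure was tested on simulated data, where small changes were recovered in part and unchanged genes made up somewhat more of the calls than the threshold allows. Standard errors were obtained as the size of the log2 fold change over the square root of F. The members and the 30 lists were chosen with earlier results of these data known. Genes were named from the lists, from the 10 largest fitted fold changes of called genes in each direction at 50 CPM or more and the same direction in all libraries, and from genes the study names for these clusters. Members missing from the matrices were not analysed here. List medians were the same with genes at 0 UMIs in a cluster set to a floor of 3 UMIs.

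Sums of the same pool share a library, so the library pairs them by design. Their deviations from the cluster means correlated at 0.0467 in WT, 0.0315 in sGSN-/- and 0.0524 in sGSN-/-Clec9a-/-. Alternatives were DESeq2 1.42.0, other scalings, no filter, the library as a block, each library left out, thinning to 1400 UMIs per cell, doublet-scored barcodes left out (slightly more than the top 6% of scores in each library, 805, 499 and 583 barcodes, from Python 3.11.15 with scanpy 1.11.5), cells with 2 or more markers of other types left out, and k-means groups (scikit-learn 1.9.0) from part of the molecules. Cells under 5000 UMIs left out and thinning to 5000 UMIs were added after seeing the data. NK background barcodes lay outside the table and held *Ncr1*, *Klrb1c* and *Nkg7*.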

Additional observations from a re-analysis of the deposited data

How the results depend on the processing

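Against 1286 genes higher in cluster 8 and 1062 in cluster 9, leaving out each library in turn gave 790 to 1356 and 588 to 1169. Without the WT library 1347 of the 2183 called genes still tested kept their call. DESeq2 gave 1003 and 762, its size factors in edgeR 1272 and 1073, and no filter 1694 and 1170 of 14280 tested. Thinning to 1400 UMIs per cell gave 296 and 240 of 1253 tested, and thinning to 5000 UMIs 736 and 637 of 3436, with fewer genes above the filter. Without cells under 5000 UMIs, 1216 and 1011 passed. The library as a block gave 1258 and 1052, and apart from *Clec9a* (log2 fold change -1.13, edgeR adjusted p = 0.00034) it changed no call of a gene named here.

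Among genes named, those whose direction turned when cells were regrouped on part of the molecules were *Apoe* (-0.39), *Batf3* (0.48), *Ccl4* (-1.40), *Cxcl9* (-0.67), *Klrd1* (-0.28) and *Nfkbia* (0.054). That setting places 91 cells of cluster 8 with cluster 9 and also counts only part of the molecules. *Batf3* also turned with cells thinned to 5000 UMIs (0.15). The cause was not tested in either setting. The list medians that changed sign, beyond those given with their lists, were those of glycolysis with thinned cells (-0.48) and after regrouping (-0.22). Of uptake receptors a single gene remained after thinning. Of 420 list medians in the alternatives, 108 moved by more than the SD between libraries. Most of these were 24 of the 30 lists with cells thinned to 1400 UMIs, 22 after regrouping, 14 with cells thinned to 5000 UMIs, 12 without TMM factors, 9 with cells that held markers of other types left out, and 9, 7 and 4 without the WT, sGSN-/- and sGSN-/-Clec9a-/- libraries, so medians depended on these settings. Thinning also changed which members were tested, and regrouping also changed the molecules counted. The parts of depth and of division alone were therefore not separated.

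The depth limits low genes: 1 UMI over cluster 9 of the sGSN-/- library was worth 1.80 CPM. With 3 libraries of different genotypes, the spread between libraries holds the difference between genotypes as well as that between pools, and these cannot be told apart.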
